A study of Homo sapiens with 6 samples.

Results

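The natriuretic peptide system was examined in CD31+ cells derived from the human embryonic stem cell line H1, with or without MSX2, at day 8 of hematopoietic differentiation. The genes were taken by symbol from the deposited table of FPKM values: the receptors NPR1, NPR2 and NPR3, the peptide genes NPPA, NPPB and NPPC, and CORIN, which makes 7 of 58364 rows with values. They were selected on results of these libraries, namely the FPKM of NPR3, which was lower in MSX2-/- than in WT cells. The differences between genotypes in these 7 genes are therefore given as descriptions, without a test. RNA-seq had been performed on 2 libraries of wild-type (WT) H1 cells and 4 libraries of H1 cells with MSX2 knocked out by CRISPR/Cas9 (MSX2-/-), which are 2 replicates of each of 2 clones. The labels give no other agent or allele that separates the groups. In the labels, CD31+ stands with the MSX2-/- samples alone, whereas the study names them for both genotypes, and the growth protocol in the labels mentions HAND1 overexpression, of which the study says nothing for these cells. The clones are called 1 and 2 here as in the table, since the labels number them otherwise. Each clone is a single edited line, so a difference from WT can also be one of the clones.

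Natriuretic peptides are hormones of the heart and the vessel wall. ANP (from NPPA) and BNP (from NPPB) bind NPR1, CNP (from NPPC) binds NPR2, and both receptors are membrane guanylyl cyclases that make cGMP. NPR3 has no cyclase domain, takes up all of these peptides and removes them, and couples to inhibitory G proteins. CORIN is the membrane protease that cuts the ANP precursor. In the embryonic heart, NPR3 is known as a marker of the endocardium, the endothelial lining of the heart.

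NPR3 lies on chromosome 5 from 32689070 to 32791724, plus strand, in the GENCODE annotation of GRCh38, with 7 annotated transcripts and no overlapping gene. NPR1 lies on chromosome 1 from 153678637 to 153693992, plus strand, with MIR8083 inside it on the other strand. NPR2 lies on chromosome 9 from 35792154 to 35809732, plus strand, and overlaps SPAG8 on the other strand. NPPA (11845709 to 11848345) and NPPB (11857464 to 11858931) are neighbours on the minus strand of chromosome 1, and CLCN6 overlaps NPPA from the other strand. NPPC is on chromosome 2 from 231921820 to 231926403 and CORIN on chromosome 4 from 47593998 to 47838106, both on the minus strand. The table itself holds symbols without positions, and the use of strand in its making is not given in the sources used here. RefSeq promoter windows (GRCh38.p14, 250 bases before to 50 after a transcription start) were found for 6 of the 7 genes, all but NPPB. The windows of the 3 receptors are shown because the receptors carry nearly all of the family's FPKM. NPR3 has windows at 2 RefSeq starts, which a single FPKM value per gene cannot separate. RefSeq starts can differ from those of GENCODE, and the NPR2 window ends before the GENCODE start of that gene. Lower case marks the bases before the start and capitals the bases after it, all read on the plus strand.
NPR3, first start, chr5:32690622-32690921: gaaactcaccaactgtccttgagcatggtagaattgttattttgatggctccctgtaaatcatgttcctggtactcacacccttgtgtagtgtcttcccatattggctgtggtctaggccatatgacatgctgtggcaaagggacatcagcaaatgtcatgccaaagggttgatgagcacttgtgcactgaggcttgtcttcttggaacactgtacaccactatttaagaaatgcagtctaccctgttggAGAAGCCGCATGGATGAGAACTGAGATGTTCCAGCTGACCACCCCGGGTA
NPR3, second start, chr5:32710399-32710698: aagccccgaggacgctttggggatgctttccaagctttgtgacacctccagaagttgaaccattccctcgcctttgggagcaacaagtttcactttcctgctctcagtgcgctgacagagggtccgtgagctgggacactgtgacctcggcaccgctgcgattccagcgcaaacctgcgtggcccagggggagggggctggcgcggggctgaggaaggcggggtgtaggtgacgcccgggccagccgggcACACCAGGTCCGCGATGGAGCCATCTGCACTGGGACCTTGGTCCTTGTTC
NPR1, chr1:153678438-153678737: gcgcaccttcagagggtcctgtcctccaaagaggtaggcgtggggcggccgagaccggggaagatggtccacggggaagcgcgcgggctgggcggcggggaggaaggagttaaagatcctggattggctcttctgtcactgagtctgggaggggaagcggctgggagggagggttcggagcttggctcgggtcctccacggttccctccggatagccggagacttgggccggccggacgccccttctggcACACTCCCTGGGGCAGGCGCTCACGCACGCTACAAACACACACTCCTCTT
NPR2, chr9:35791341-35791640: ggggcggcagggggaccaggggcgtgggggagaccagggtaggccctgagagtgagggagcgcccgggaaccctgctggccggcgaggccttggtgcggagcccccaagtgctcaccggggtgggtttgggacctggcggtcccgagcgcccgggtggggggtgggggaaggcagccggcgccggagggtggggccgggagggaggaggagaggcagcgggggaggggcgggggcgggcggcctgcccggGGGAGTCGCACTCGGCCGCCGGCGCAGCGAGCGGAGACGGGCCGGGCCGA
The windows of the 2 NPR3 starts differ in base composition. The first holds 47.3% G and C with 2 CpG dinucleotides, and the second holds 63.3% with 18. NPR1 has 66.3% with 23 CpG, NPR2 has 79.7% with 31 CpG, and the median over all 35116 windows is 58.7% G and C. TAATTG, a sequence that MSX homeodomains are known to bind, was searched on both strands, as was TAAT, the shorter core that lies inside it. TAATTG stood in 0 of the 7 windows of these genes and in 7.38% of all windows. TAAT stood in 2 of the 7, those of NPPC and CORIN, and in 50.2% of all windows.

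The depth of the libraries relative to WT replicate 1, read from genes of low FPKM, ranged from 1 to 1.18, and 13366 to 14222 genes reached 1 FPKM. The number of reads is not in the table, so no detection limit can be given. PECAM1, which encodes CD31, had between 186 and 258 FPKM in all 6 libraries, and the endothelial cadherin gene CDH5 between 230 and 423 FPKM. MSX2 itself was at 3.64 and 1.44 FPKM in WT and at 18.0, 5.63, 31.8 and 6.69 FPKM in MSX2-/- cells (clone 1 replicates 1 and 2, then clone 2 replicates 1 and 2). The transcript was thus higher in the edited cells, and its level does not check the genotype labels. Among the 15895 genes whose mean reached 0.5 FPKM, limma on log2(FPKM + 1) called 204 at an adjusted p under 0.05 between MSX2-/- and WT, 1.28% of those tested, and 51 of them (0.321%) were lower in MSX2-/- cells. Blocking on the replicate number raised the count to 1566 (9.85%).

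NPR3 had the highest FPKM of the 3 receptors in WT replicate 1, came second to NPR1 in WT replicate 2, and was lower in every MSX2-/- library. Its level was 39.7 and 20.8 FPKM in WT replicates 1 and 2. In MSX2-/- cells it was 3.67 and 3.27 FPKM in clone 1 and 8.34 and 2.94 FPKM in clone 2. All 4 MSX2-/- libraries lay below both WT libraries, and the highest of them, clone 2 replicate 1, stood apart from the rest. The means were 30.2 ± 13.4 FPKM in WT (SD, n = 2) and 4.56 ± 2.54 FPKM in MSX2-/- cells (SD, n = 4), a 6.64-fold lower level and a difference of -2.52 on the log2(FPKM + 1) scale. Within a replicate number, NPR3 was 10.8-fold lower than WT in clone 1 replicate 1 and 6.35-fold lower in clone 1 replicate 2. In clone 2 it was 4.76-fold lower in replicate 1 and 7.07-fold lower in replicate 2. Of the 15895 genes tested, 10 had a lower log2 difference than NPR3 (0.0629%). NPR3 was selected for being lower in these libraries, so this rank restates the choice and is no test. These are bulk values, in which fewer cells that express a gene and less RNA of it per cell cannot be told apart.

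NPR1, the receptor for ANP and BNP, was also lower in MSX2-/- cells, by a smaller ratio. It was at 22.7 and 27.3 FPKM in WT replicates 1 and 2. It was at 13.6 and 18.3 FPKM in clone 1 and at 14.1 and 17.8 FPKM in clone 2. The groups did not overlap, and in WT and in both clones replicate 2 was higher than replicate 1. The means were 25.0 ± 3.29 FPKM in WT (SD, n = 2) and 15.9 ± 2.43 FPKM in MSX2-/- cells (SD, n = 4), a 1.57-fold lower level. Within the replicate numbers the ratio of WT to MSX2-/- ran from 1.50 to 1.67. The endothelial gene CDH5 was itself 1.57-fold lower in MSX2-/- cells (means 401 FPKM in WT and 256 FPKM in MSX2-/- cells). Relative to CDH5, NPR1 overlapped between the genotypes. It was at 5.36 and 7.21 FPKM per 100 FPKM of CDH5 in WT and 5.53 to 6.79 in MSX2-/- cells. The same ratio for NPR3 did not overlap, at 9.38 and 5.48 in WT and 1.09 to 3.27 in MSX2-/- cells. Relative to PECAM1 neither overlapped, the gap being narrow for NPR1, at 8.80 and 12.5 per 100 FPKM in WT and 6.51 to 8.72 in MSX2-/- cells. NPR3 was at 15.4 and 9.55 per 100 FPKM of PECAM1 in WT and at 1.28 to 4.47 in MSX2-/- cells. NPR3 was chosen for its lower FPKM, so its ratios restate the choice and are no test. They also depend on the reference gene, since CLDN5, another endothelial gene, was 4.97-fold lower in MSX2-/- cells.

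NPR2, the receptor for CNP, separated the replicate numbers, while its genotypes overlapped. It was at 11.6 FPKM in WT replicate 1 and 3.30 FPKM in WT replicate 2. It was at 11.1 and 4.94 FPKM in clone 1 and at 10.1 and 3.83 FPKM in clone 2. The means were 7.45 ± 5.88 FPKM in WT (SD, n = 2) and 7.49 ± 3.64 FPKM in MSX2-/- cells (SD, n = 4). The log2 difference between genotypes was 0.10, and it had the other sign without WT replicate 2 (-0.68), without clone 1 replicate 1 (-0.11) or without clone 2 replicate 1 (-0.07).

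The make-up of the receptor transcripts differed between the genotypes. This follows in part from the lower FPKM of NPR3 for which the genes were chosen, and is a description only. NPR3 made up 53.6% and 40.5% of the summed FPKM of the 3 receptors in WT replicates 1 and 2. In MSX2-/- cells it made up 12.9% and 12.4% in clone 1 and 25.6% and 12.0% in clone 2. The sum of the cyclase receptors NPR1 and NPR2 was 34.3 and 30.6 FPKM in WT and 21.6 to 24.7 FPKM in MSX2-/- cells, so that it too was lower in all 4 libraries. Within this sum NPR1 was the part that separated the genotypes, since NPR2 overlapped between them. NPR3 had 1.75 and 0.761 times the FPKM of NPR1 in WT, and 0.165 to 0.590 times in MSX2-/- cells.

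The peptide genes and CORIN were barely detected. Their means over all 6 libraries were under 0.5 FPKM. So 3 of the 7 genes, the receptors, entered the fits, each with at least 2.94 FPKM in every library. NPPB, which encodes BNP, was listed at 0 in WT replicate 1 and had 0.103 FPKM in WT replicate 2. In MSX2-/- cells it had 0.467 and 0.220 FPKM in clone 1 and 1.05 and 0.286 FPKM in clone 2. All 4 MSX2-/- libraries were above both WT libraries, and clone 2 replicate 1 was highest. This was so above WT for 12.1% of all genes tested, and NPPB itself was too low to be tested. NPPC, which encodes CNP, had 0.428 and 0.957 FPKM in WT, 0.0514 and 0.602 FPKM in clone 1, and 0.170 and 0.104 FPKM in clone 2. Its groups overlapped, although each MSX2-/- library was below its WT counterpart with that replicate number, by 1.59-fold to 9.21-fold. NPPA, which encodes ANP, had 0.104 and 0.191 FPKM in WT and 0.137 and 0.102 FPKM in clone 1, and was listed at 0 in both libraries of clone 2. CLCN6, which overlaps NPPA on the other strand, had 9.42 to 13.5 FPKM, and reads of the pair cannot be told apart without strand. CORIN had 0.170 FPKM in WT replicate 1, 0.240 FPKM in clone 1 replicate 1, 0.0493 and 0.0479 FPKM in clone 2, and was listed at 0 in WT replicate 2 and clone 1 replicate 2. Neither NPPA nor CORIN separated the genotypes.

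**Figure D1:**
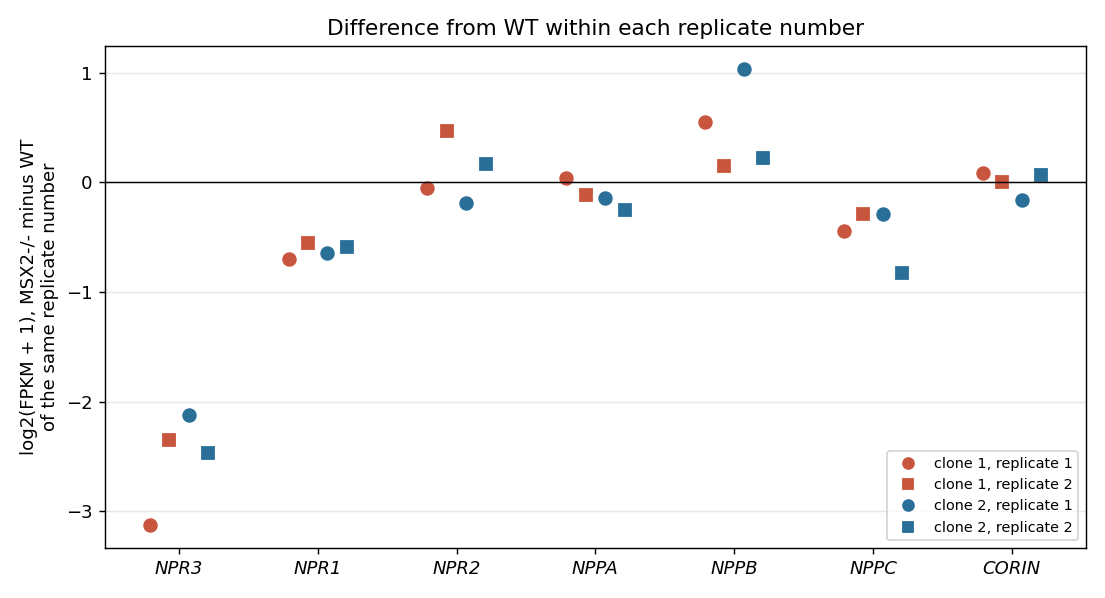
Difference in log2(FPKM + 1) between each MSX2-/- library and the WT library that shares its replicate number (vertical axis) for the 7 genes; colours are clones and symbols replicate numbers, and the line at 0 is WT. NPR3 lies lowest, with FPKM 4.76-fold to 10.8-fold below WT, NPR1 follows at 1.50-fold to 1.67-fold below WT with little spread, and NPPB is above 0 in all 4 pairs.

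Of the 3 receptors, 2 had all MSX2-/- libraries below both WT libraries. This was so for 9.19% of all genes tested, and the group of genes was chosen for the lower FPKM of NPR3. A pair of comparisons did not enter the choice and were tested. The first compared the clones, with 2 libraries each. No gene of 15895 was called (0%), while 225 had an unadjusted p under 0.05, and 530 with the replicate block. NPR3 was higher in clone 2 than in clone 1 by 0.44 on the log2(FPKM + 1) scale (95% interval -0.78 to 1.67, or -0.24 to 1.13 with the replicate block, limma adjusted p = 1). Without clone 2 replicate 1 the sign turned (-0.18). NPR1 differed by 0.01 (95% interval -0.57 to 0.59) and NPR2 by -0.22 (-1.91 to 1.48), with the same adjusted p of 1. These intervals leave room for differences between clones of more than the estimates, most of all for NPR2 without the block.

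The second comparison was replicate 2 against replicate 1, with genotype (WT or MSX2-/-) in the model and 3 libraries on each side. The labels give each replicate number a set letter of its own (F or S) and do not say what the letters stand for. Here 5492 of 15895 genes were called (34.6%), and 4441 with WT and the clones as 3 groups in the model. NPR2 was lower in replicate 2 by -1.26 ± 0.144 (log2 difference ± SE, limma adjusted p = 0.00244), and replicate 1 exceeded replicate 2 by 3.52-fold in WT, 2.25-fold in clone 1 and 2.63-fold in clone 2. NPR1 was higher in replicate 2 by 0.33 ± 0.074 (SE, limma adjusted p = 0.0196), although its adjusted p was 0.0591 to 0.0757 when any one MSX2-/- library was left out. NPR3 was lower in replicate 2 in WT and in both clones, by -0.76 ± 0.252 (SE), and did not pass the threshold (limma adjusted p = 0.0609). Without clone 1 replicate 1 its adjusted p was 0.0102. The receptors thus moved in different directions between the replicate sets, and 2 of the 3 passed the threshold against 34.6% of all genes.

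TGFBR3 had the pattern most like that of NPR3 over the 6 libraries. Likeness was measured as the root mean square difference of log2(FPKM + 1) after centring each gene, over 13001 genes that averaged 1 FPKM or more. The 5 nearest genes were TGFBR3 (0.16), BIK (0.26), CLDN5 (0.31), MIR503HG (0.33) and CD200 (0.36). TGFBR3, a coreceptor for TGF-β family ligands, was at 35.4 and 18.1 FPKM in WT, 3.73 and 2.29 FPKM in clone 1 and 6.01 and 1.96 FPKM in clone 2. Like NPR3, it was highest in WT replicate 1 and, among MSX2-/- libraries, in clone 2 replicate 1. CLDN5, a tight junction gene of endothelium, was at 115 and 96.0 FPKM in WT and at 17.1 to 28.2 FPKM in MSX2-/- cells. BIK, which encodes a pro-apoptotic BH3-only protein, was at 18.0 and 13.4 FPKM in WT and at 1.90 to 4.61 FPKM in MSX2-/- cells. MIR503HG, a non-coding RNA gene, was at 17.9 and 15.6 FPKM in WT and at 1.91 to 4.06 FPKM in MSX2-/- cells. CD200, which encodes a membrane glycoprotein, was at 19.7 and 9.52 FPKM in WT and at 1.48 to 5.35 FPKM in MSX2-/- cells. These genes were ranked on the same 6 libraries, WT and MSX2-/- together, and no test was made.

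**Figure D2:**
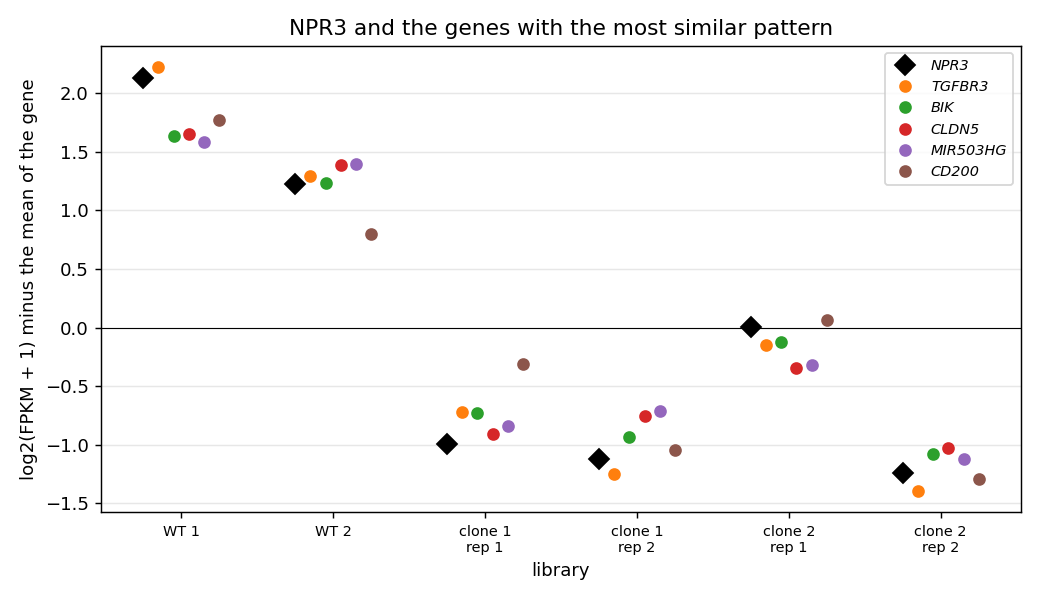
Level of NPR3 (black diamonds) and of the 5 genes nearest to it in pattern (coloured circles) in each library, as log2(FPKM + 1) minus the mean of the gene over the 6 libraries. All 6 genes are highest in the WT libraries, and in clone 2 replicate 1 they lie above the other MSX2-/- libraries.

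Around the receptors, a list of 40 genes that process the peptides or make, read or remove cGMP was compared between genotypes. Of these, 24 were expressed highly enough to be tested, and without the block 0 were called, with 6 at an unadjusted p under 0.05. With the replicate block, 2 were higher in MSX2-/- cells and 1 was lower, where 9.85% of all genes tested were called. The median log2 difference of the 24 was 0.0995, and that of all genes tested was 0.00805. In 4 of the 24 all MSX2-/- libraries lay above both WT libraries (12.1% of all genes tested), and in 3 of the 24 all lay below (9.19%).

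ABCC4, which encodes an exporter of cyclic nucleotides, was at 4.90 and 5.95 FPKM in WT, 8.40 and 11.0 FPKM in clone 1 and 8.90 and 12.1 FPKM in clone 2. All 4 MSX2-/- libraries were above both WT libraries, and within each line replicate 2 was the higher. The log2 difference was 0.78 ± 0.101 (SE), with adjusted p = 0.00799 under the replicate block and 0.152 without it, and the blocked call was lost without WT replicate 2 (adjusted p = 0.0549). ABCC5, the other expressed exporter, was at 18.3 and 16.6 FPKM in WT and 17.1 to 19.5 FPKM in MSX2-/- cells.

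NOS2, the inducible nitric oxide synthase, was at 1.17 and 2.09 FPKM in WT, 7.09 and 4.07 FPKM in clone 1 and 5.47 and 5.20 FPKM in clone 2. It was higher in MSX2-/- cells by 1.30 ± 0.233 (log2 difference ± SE) with adjusted p = 0.0227 under the replicate block and 0.0733 without it. The blocked call was lost without WT replicate 1 (0.114), clone 1 replicate 1 (0.0553), clone 2 replicate 1 (0.0561) or clone 2 replicate 2 (0.0671). NOS3, the endothelial nitric oxide synthase, was far more abundant, at 101 and 127 FPKM in WT and 79.2 to 101 FPKM in MSX2-/- cells, with a log2 difference of -0.36 (adjusted p = 0.152 with the replicate block). The soluble guanylyl cyclase subunits GUCY1A1 and GUCY1B1, which nitric oxide activates, were between 0.0739 and 2.22 FPKM, and the membrane cyclases GUCY2C, GUCY2D and GUCY2F were listed at 0 in all 6 libraries.

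GNAI2, an inhibitory G protein subunit of the kind NPR3 couples to, was at 444 and 443 FPKM in WT and at 352 to 385 FPKM in MSX2-/- cells. It was lower in MSX2-/- cells by -0.28 ± 0.054 (log2 difference ± SE), with adjusted p = 0.0283 under the replicate block and 0.217 without it. The blocked call was lost when any one of the 6 libraries was left out (adjusted p from 0.0505 to 0.131). GNAI1 was at 107 and 147 FPKM in WT and 92.1 to 127 FPKM in MSX2-/- cells, and GNAI3 stayed between 2.13 and 2.84 FPKM.

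The remaining roles held no called gene. VASP, a substrate of cGMP-dependent kinase, was at 187 and 296 FPKM in WT and 183 to 335 FPKM in MSX2-/- cells. PRKG1, the kinase itself, was low, at 1.37 and 1.68 FPKM in WT and 0.137 to 1.08 FPKM in MSX2-/- cells, with a log2 difference of -0.70 (adjusted p = 0.166 with the replicate block). PDE2A, a phosphodiesterase that cGMP stimulates, was the most abundant of the 10 phosphodiesterases listed, at 11.6 to 27.3 FPKM. FURIN, a protease that cuts peptide precursors, was at 205 and 291 FPKM in WT and 248 to 305 FPKM in MSX2-/- cells. All 6 cGMP-gated channel genes were too low to be tested, and summed to at most 0.142 FPKM.

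Between the replicate sets, 9 of the 24 were called, a share near the 34.6% of all genes tested. FURIN, VASP, ABCC4 and GNAI1 were higher in replicate 2, and GUCY1B1, IRAG1, PDE2A, PDE5A and PDE9A were lower. PDE9A, a phosphodiesterase specific for cGMP, separated the sets as NPR2 did. It was at 13.0, 14.2 and 11.6 FPKM in replicate 1 and at 3.36, 5.35 and 2.04 FPKM in replicate 2 of WT, clone 1 and clone 2, a log2 difference of -1.66 (limma adjusted p = 0.00665).

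Markers of the cells that use these genes also differed between the genotypes, and their part in the values above was not tested. Of 10 endothelial markers, 3 were lower in MSX2-/- cells (CDH5, TIE1 and CLDN5), and 8 with the replicate block, with 0 higher in either fit. Over all genes tested, 0.321% were lower without the block and 3.74% with it, while 0.963% and 6.11% were higher. Their summed level was 2542 to 2662 FPKM in WT and 1587 to 1945 FPKM in MSX2-/- cells, and none was at 0. PECAM1 was not among those called (log2 difference -0.19, adjusted p = 0.325 with the replicate block). Of 9 endocardial markers, 2 were higher in MSX2-/- cells, NFATC1 (0.94, adjusted p = 0.0410) and GATA5 (1.77, adjusted p = 0.0150). With the replicate block GATA4 and CDH11 were higher as well, and FOXC1 was lower (-1.12, adjusted p = 0.00799). The list thus held genes that moved with NPR3 and genes that moved against it. Their sum, most of it PLVAP, was 5646 to 6272 FPKM in WT and 5033 to 5345 FPKM in MSX2-/- cells.

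Markers of heart muscle were examined beside NPPB. Of 10 cardiomyocyte markers, 7 were tested and 0 were called without the block, while 4 were higher in MSX2-/- cells with it (MYL7, NKX2-5, ACTC1 and TNNI3), where 6.11% of all genes tested were higher. The summed level of the 10 markers was 35.6 to 44.8 FPKM in WT and 84.8 to 123 FPKM in MSX2-/- cells. A large part of it was the transcription factor gene NKX2-5, at 30.9 and 41.4 FPKM in WT and 49.6 to 84.3 FPKM in MSX2-/- cells. ACTC1, cardiac actin, was at 2.47 and 1.58 FPKM in WT, 24.2 and 10.5 FPKM in clone 1 and 49.5 and 7.67 FPKM in clone 2. MYL7, the atrial myosin light chain, was at 0.415 FPKM and listed at 0 in WT, and at 3.28, 2.95, 8.94 and 2.13 FPKM in the MSX2-/- libraries in the same order. Both genes, like NPPB, were highest in clone 2 replicate 1, as were TNNI1 (2.28 FPKM) and RYR2 (0.2175 FPKM, too low to be tested). The other markers of the list were highest in other libraries. TNNI3 was highest in clone 1 replicate 1 (4.19 FPKM), and NKX2-5 and TNNT2 were highest in the replicate 2 libraries of the clones, NKX2-5 at 83.8 and 84.3 FPKM there. The defining markers TNNT2 (0.134 to 1.21 FPKM), MYH6 (0.154 to 0.408 FPKM) and MYH7 (0.0629 to 0.280 FPKM) were low in all libraries. TNNT2 was at 0.134 and 0.142 FPKM in WT and higher, at 0.449 to 1.21 FPKM, in MSX2-/- cells, while MYH6 and MYH7 overlapped between the genotypes. The part of such cells in the NPPB values was not tested.

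Blood and mesenchymal markers were examined as those of other cells that the collected fraction could hold. How far collection by CD31 removed cells that lack it was not tested. Of 8 blood markers, 7 were tested, 1 was higher in MSX2-/- cells (KLF1, against 0.963% of all genes tested), and 5 with the replicate block (against 6.11%). Their sum was 104 to 131 FPKM in WT and 249.9 to 325 FPKM in MSX2-/- cells. PTPRC was at or below 0.115 FPKM in all libraries and listed at 0 in clone 2 replicate 2. Of 10 mesenchymal markers, 8 were tested, 2 were higher (COL1A1 and TAGLN), and 4 with the replicate block, against the same shares. The sum of the 10 was 279 to 337 FPKM in WT and 500 to 575 FPKM in MSX2-/- cells. COL1A1 had means of 41.8 FPKM in WT and 198 FPKM in MSX2-/- cells, and TAGLN 24.45 and 91.0 FPKM. COL1A2 (means 146 and 140 FPKM) and COL3A1 (42.0 and 29.8 FPKM) were not higher in MSX2-/- cells. POSTN was listed at 0 in WT replicate 2 and DCN in clone 2 replicate 2. None of the 7 genes described here belongs to these lists.

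**Figure D3:**
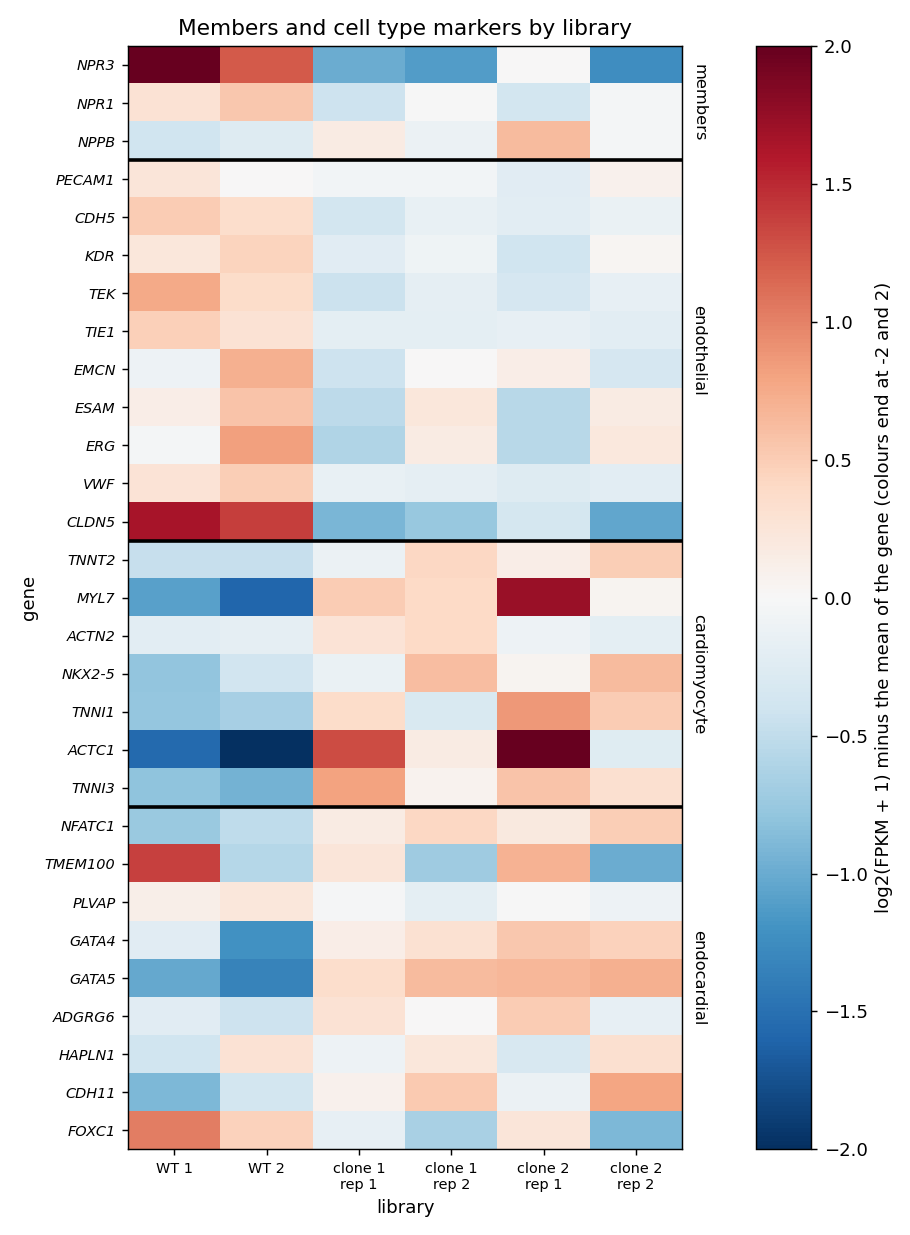
Levels of NPR3, NPR1 and NPPB and of the tested endothelial, cardiomyocyte and endocardial markers (rows) in the 6 libraries (columns), coloured by log2(FPKM + 1) minus the mean of the gene, red for higher and blue for lower, with colours ending at -2 and 2. NPR3 and CLDN5 change from red in WT to blue or white in MSX2-/- cells, whereas MYL7, ACTC1, TNNI3, NFATC1 and GATA5 are blue in WT.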

How the data were processed

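The 6 libraries were Illumina RNA-seq of total RNA. The authors deposited FPKM, that is fragments scaled to transcript length and to all mapped fragments, in 1 table with a row per gene symbol, replicates not pooled. Per the labels and the design text, BWA, Bowtie, RSEM, TopHat and Cufflinks were used with hg19, and the text does not say which made the table. Versions, annotation and filters are not given in the sources used here. Of 58364 rows with values, 342 symbols stood on several, and a listed gene then took its row of highest mean.

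The analysis of log2(FPKM + 1) used limma 3.58.1 (R 4.3.3) with a mean-variance trend and moderated errors, on the 15895 genes that averaged 0.5 FPKM or more. Benjamini-Hochberg adjustment covered all of these genes. The 4 MSX2-/- libraries were compared with the 2 of WT, first without and then with replicate number as a blocking factor. Replicate numbers come from the labels, and deviations from the group means correlated between same-numbered libraries (r = 0.508, 0.540 and 0.636 for the 3 pairs of lines, across 15895 genes, which are not independent replicates), so the numbers were taken to pair the libraries. The labels do not say whether replicates were separate cultures, so p-values measure the spread between these libraries, which may be technical. The fits were tested on simulated data. Relative depth was read from genes under 0.1 FPKM.

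The 7 genes, the lists and the tests were chosen with earlier results of these data known. Named were all 7 genes, pathway genes called with or without the block, otherwise the best expressed of each role, the 5 genes nearest to NPR3 and the defining markers. A withheld item is not reported here and is left out of the list counts. PDE9A, PRKG1, NOS3, GNAI1, GNAI3, ABCC5, MYL7, ACTC1 and other genes outside this rule were named after their values were seen. Alternatives were a pseudocount of 0.1, no filter, a filter of mean 1 FPKM, rescaling by the median ratio, 3 groups, and leaving out each library. Positions are from GENCODE 29 (GRCh38), and promoter windows from RefSeq, independent of the table's build.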

Additional observations from a re-analysis of the deposited data

Results flagged for a closer look

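Among 72 genes of the lists described, 3 had 1 of the 4 MSX2-/- libraries set apart from the others by Dixon's criterion at 95% (gap to the nearest library over the range), which chance alone meets in about 1 in 20 groups. NPR3 was at 8.34 FPKM in clone 2 replicate 1, against 2.94 to 3.67 FPKM in the others (ratio 0.866). MYL7 was at 8.94 FPKM in the same library, against 2.13 to 3.28 FPKM (ratio 0.832). PDE1B, a phosphodiesterase, was at 0.919 FPKM in clone 2 replicate 2, against 1.40 to 1.46 FPKM (ratio 0.888). Without clone 2 replicate 1, the log2 difference of NPR3 between MSX2-/- and WT was -2.80 instead of -2.52. The cause of these values was not tested.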

How the results depend on the processing

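Leaving out any library, each clone or replicate number alone, a pseudocount of 0.1 and rescaling kept NPR3 lower in MSX2-/- cells, by -2.07 to -2.97 on the log2 scale, and NPR1 lower in every setting run. For both genes every MSX2-/- library lay below both WT libraries. Leaving out libraries or changing the pseudocount could thus not turn the sign, and these settings show only how the size varied. The count of genes called between MSX2-/- and WT was 204, and it was 1566 with the replicate block, 125 without a filter, 6 with 3 groups and 19 to 82 with a library left out. With the block, that count was 507 without a filter and 704 to 1002 with a library left out. The pathway count of 0 became 3 with the replicate block, and 1 to 2 of these calls were left when a library was left out, or 1 without a filter (combinations chosen after seeing the data). Without a filter, NOS2 and GNAI2 lost the blocked call (adjusted p = 0.110 and 0.0817). The block changed no call between clones. Between clones, 0 calls became 1 with a pseudocount of 0.1 and 0 to 3 with a library left out. Between replicate sets, 5492 calls became 3593 without a filter and 3159 to 4789 with a library left out. The clone difference of NPR1 was -0.00896 after rescaling, and with a library left out it ran from -0.192 to 0.211, that of NPR2 from -0.815 to 0.381 and that of NPR3 from -0.179 to 1.06. With a library left out, the genotype difference of NPR2 ran from -0.680 to 0.874 and that of CORIN from -0.115 to 0.112, and CORIN was at 0.0112 with a pseudocount of 0.1. The smaller pseudocount enlarged the differences of NPPA (-0.720), NPPB (1.90) and NPPC (-1.43). Depth limits the peptide genes and CORIN, which lie near or below 1 FPKM. The cause of these changes was not tested, though leaving out a library also leaves fewer samples.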
